A study of Homo sapiens with 12 samples.

Results

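Cadherin and protocadherin genes were examined in C4.2B cells, an established human cell line of castration-resistant prostate cancer. Members were the genes whose symbol is CDH or PCDH followed by a number, with the alpha, beta and gamma cluster names of the protocadherins included, and 90 of the 23228 counted genes matched. They comprised 23 CDH genes, of which 18 were classical cadherins, 12 protocadherin genes outside the clusters and 55 clustered protocadherin genes. PolyA RNA-seq libraries came from 4 arms of 3 replicates, A, B and C. The arms were DMSO (vehicle), GDC (GDC-0941 at 0.5 µM, a pan-PI3K inhibitor), GSK (GSK126 at 5 µM, an inhibitor of the histone methyltransferase EZH2) and COMBO (both agents). Cells in GSK and COMBO received GSK126 for 6 days beforehand, the other arms received vehicle over that time, and treatment then lasted 24 h in 10% charcoal-stripped serum. Each arm was 3 plates of this single line, so p-values measure only the spread between these samples, which may be technical.

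Cadherins are calcium-dependent adhesion proteins of the cell surface. Classical cadherins join neighbouring cells through their extracellular repeats and bind catenins, which link them to actin, inside the cell. Clustered protocadherins lie in tandem on chromosome 5 and are best known from neurons, where each cell uses a subset of isoforms as an identity code. Every alpha or gamma isoform joins its own variable first exon to constant exons shared by its cluster, while beta genes hold a single coding exon, and the choice of promoter depends on CTCF and cohesin.

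Library depth lay between 8785218 and 44437751 counts in genes, DMSO C being the deepest. Values are CPM, counts scaled to library size after TMM normalization. A total of 3 pooled counts, the most that a count of 0 allows, corresponded to 0.0434 CPM in DMSO, 0.0707 under GDC, 0.0894 under GSK and 0.0561 under COMBO, and such floors and the intervals below cover counting error only. Reads assigned to no counted feature made up 13.7% to 14.6% of reads in DMSO, 15.2% to 15.7% under GDC, 18.5% to 18.9% under GSK and 21.0% to 23.0% under COMBO. Whether they lay within or outside genes is not given. All 10 prostate luminal markers examined were detected, with summed levels of 3445 to 3663 CPM in DMSO, 5005 to 5142 under GDC, 4594 to 5002 under GSK and 5668 to 6113 under COMBO.

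To ask how the inhibitors changed the protocadherin clusters as wholes, counts were summed per cluster, a value that does not depend on how reads were divided among near-identical members. Summed expression of the 18 beta genes was 1.16, 0.774 and 1.16 CPM in DMSO (A, B and C), 1.59, 2.22 and 1.81 under GDC, 19.1, 18.3 and 20.6 under GSK, and 24.7, 27.7 and 26.6 under COMBO. The 4 arms did not overlap, and the means of GSK and COMBO were 18.8-fold and 25.6-fold that of DMSO. The 15 alpha genes summed to 0.526, 0.387 and 0.674 CPM in DMSO, 1.33, 0.246 and 0.671 under GDC, 3.85, 3.71 and 2.80 under GSK, and 4.70, 4.97 and 4.51 under COMBO. GDC overlapped DMSO here, while the GSK and COMBO means were 6.53-fold and 8.94-fold that of DMSO. The 22 gamma genes began higher, at 11.6, 12.2 and 13.7 CPM in DMSO, and stood at 17.4, 18.4 and 20.8 under GDC, 38.5, 37.9 and 38.6 under GSK and 49.6, 44.5 and 51.7 under COMBO. Each gamma arm lay above the one before it without overlap, with means 1.51-fold, 3.07-fold and 3.89-fold that of DMSO. In bulk samples more cells expressing a gene and more RNA per cell cannot be told apart.

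**Figure D1:**
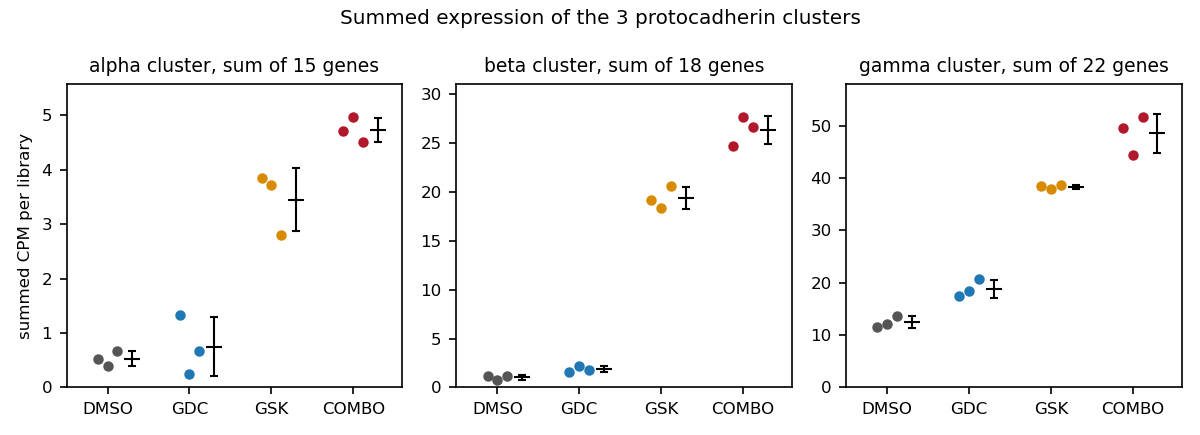
Summed CPM (y axis, from 0) of the alpha, beta and gamma protocadherin clusters in the 3 libraries of each arm (x axis), with the mean and SD as black bars. The beta sum lies at 0.774 to 1.16 CPM in DMSO and 24.7 to 27.7 CPM in COMBO.

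More cluster genes were detected with GSK126. Pooled over an arm, 26 of the 55 clustered members exceeded 3 counts in DMSO, 30 under GDC, 47 under GSK and 49 under COMBO, and 12, 7, 3 and 0 were at 0 counts, although DMSO had the largest pooled depth (74032224 counts in genes, against 32319763 under GSK). The ratio of pooled CPM to DMSO was given a 95% counting interval. Where DMSO held 0 counts, a bound took its place, the arm's CPM over the DMSO floor, without counting error in the arm. The interval or bound was above 1 for 45 of the 55 in GSK and for 48 in COMBO, and below 1 for 0 in each. For 5 the interval spanned 1 in either arm, and the remaining 5 in GSK and 2 in COMBO were at or under the floor in both arms. In GDC the interval was above 1 for 11 of the 55. Shares over all genes were not computed for these detection counts and intervals. Genes at 0 pooled counts were also fewer with GSK126 in comparator sets described below, which were chosen after the data were seen. Of 783 single-exon protein-coding genes, 439 were at 0 with vehicle, 452 with GDC-0941, 419 with GSK126 and 371 with both agents. For the 376 olfactory receptor genes these numbers were 338, 343, 327 and 298. How much of the gain in detection was particular to the clusters was not tested. In the edgeR test with no low-count filter, given below, 28.0% of all genes were higher in GSK and 33.5% in COMBO. Members at or near 0 counts in DMSO could not reach an interval below 1, so the absence of such intervals says little. Pooling also hides spread between libraries, as for PCDHB12, at 0, 0 and 6 counts in COMBO A, B and C.

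**Figure D2:**
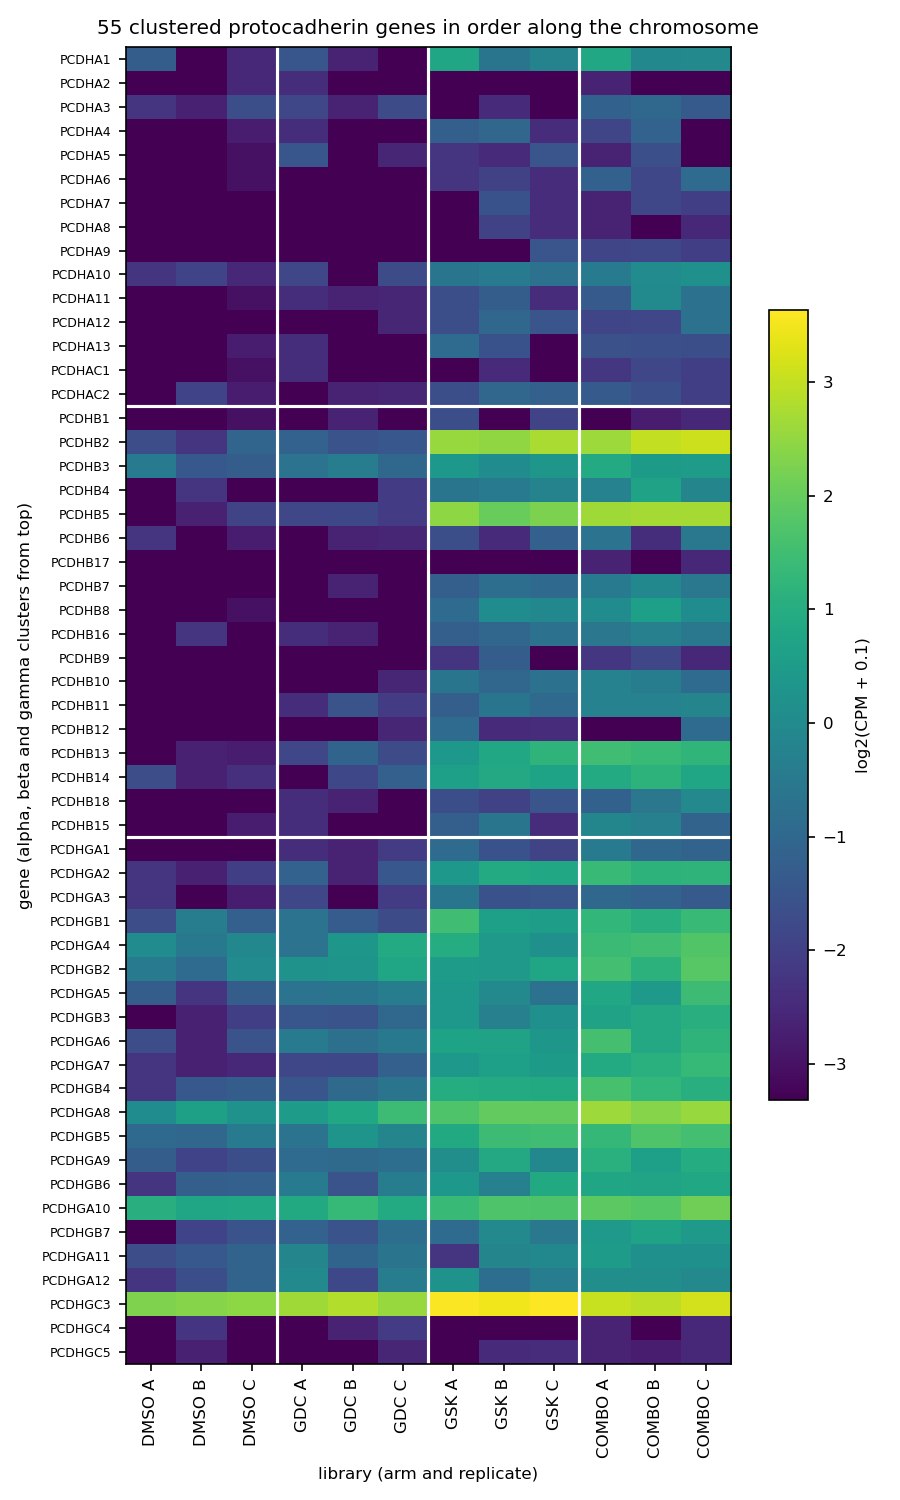
Expression of the 55 clustered protocadherin genes as log2(CPM + 0.1) (color), with genes in chromosome order (y axis; alpha, beta and gamma clusters divided by white lines) and the 12 libraries by arm (x axis, arms also divided by white lines). PCDHGC3 is the brightest row in DMSO, and PCDHB2 and PCDHB5 stand out among the beta genes in GSK and COMBO.

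The beta cluster (hg38 chromosome 5, 141051374 to 141249365) holds genes of 1 exon, most of which encode a complete adhesion receptor. GENCODE lists PCDHB17 as a transcribed pseudogene and PCDHB18 as a long noncoding RNA. PCDHB2, with the highest mean CPM in the cluster, was at 0.211, 0.111 and 0.385 CPM in DMSO, 0.354, 0.246 and 0.268 under GDC, 5.82, 5.45 and 6.61 under GSK and 6.04, 7.81 and 8.45 under COMBO. GDC overlapped DMSO, and both GSK126 arms were far above it. Its log2 fold changes were 4.34 in GSK (SE 0.27, adjusted p = 1.46e-11) and, for COMBO, 4.66 (SE 0.25, adjusted p = 5.77e-13). PCDHB5 was at 0, 0.0553 and 0.168 CPM in DMSO, 0.177, 0.185 and 0.134 under GDC, 5.38, 3.95 and 4.66 under GSK and 6.10, 6.39 and 6.34 under COMBO. All GSK126 libraries lay above the others, with log2 fold changes of 5.24 (SE 0.31, adjusted p = 8.03e-12) and 5.68 (SE 0.28, adjusted p = 1.72e-13). PCDHB13 was at 0 to 0.0553 CPM in DMSO, 0.177 to 0.370 under GDC, 1.21 to 2.20 under GSK and 2.26 to 2.73 under COMBO. It rose by 2.39 in GDC (SE 0.73, adjusted p = 0.0128) and by 5.09 and 5.62 in the GSK126 arms (SE 0.48 and 0.41, adjusted p = 8.24e-09 and 1.08e-10), but DMSO held only 3 pooled counts, and the GDC call was lost without DMSO C or GDC B (adjusted p up to 0.1004).

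The beta members with the largest fitted changes in COMBO, PCDHB11 and PCDHB8, were almost absent from DMSO, so their fitted folds depend on a prior count. PCDHB11 had 0 pooled counts in DMSO, 7 under GDC, 15 under GSK and 41 under COMBO. Its pooled CPM was 3.80-fold, 10.3-fold and 17.7-fold the DMSO floor. These values leave out counting error in the treated arm, so they are not lower limits. PCDHB8 had 1, 0, 26 and 61 counts, a ratio in COMBO of 78.8 (95% counting interval 13.6 to 3165). PCDHB8 shares 45.6% of its 50-base windows with related genes, most of them with PCDHB13, the highest share in the clusters, so the split of reads between them is uncertain. For PCDHB2 the shared windows made up 20.4%, and for PCDHB5 12.4%. Of the beta members under the test's filter, PCDHB7 had 0 pooled counts in DMSO, 14 in GSK and 38 in COMBO. PCDHB10 had 0, 16 and 34, and PCDHB18 had 0 in DMSO and 31 in COMBO. In COMBO these members stood at 16.4-fold, 14.7-fold and 13.4-fold the DMSO floor, again without counting error in the treated arm. PCDHB15 and PCDHB16 each had 2 counts in DMSO and 35 and 34 in COMBO, with ratios of 22.6 (5.81 to 194) and 22.0 (5.63 to 189), and PCDHB6 was 8.19-fold its DMSO level (2.41 to 43.2). PCDHB9 and PCDHB12 went from 0 pooled counts to 7 and 6 in COMBO, and PCDHB1 and PCDHB17 had at most 4 counts in any arm. The remaining tested beta genes, PCDHB3, PCDHB4 and PCDHB14, named beyond the rule, rose by 1.64 to 4.18 in GSK and 2.04 to 4.88 in COMBO. No tested beta gene passed the filter on its DMSO libraries alone, which favoured a rise.

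Promoter sequence was looked at because these genes moved together. RefSeq promoter windows (GRCh38.p14, 250 bases before each start) were matched for 69 of the 90 members and 14 of the 18 beta genes. The letters GTGGCGCT, chosen after the sequences were seen as one of the 8-letter runs that clustered promoters shared most, were present on either strand in 12 of the 14 beta promoters, in 0 of 13 alpha, 0 of 20 gamma and 0 of the 22 other member promoters, and in 1.14% of all 27305 promoters. They contain the CGCT core known from clustered protocadherin promoters, which alone was found in 92.3% of alpha, 92.9% of beta and 100% of gamma promoters against 67.2% of all. The windows around the run are shown for 6 tested beta genes, on the plus strand 5′ to 3′, with the run in capitals, to show how closely the letters next to it also resemble each other.
PCDHB2, chr5:141094530-141094589: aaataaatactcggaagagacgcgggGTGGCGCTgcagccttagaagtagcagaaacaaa
PCDHB3, chr5:141100379-141100438: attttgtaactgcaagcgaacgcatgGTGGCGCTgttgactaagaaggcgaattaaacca
PCDHB4, chr5:141121709-141121768: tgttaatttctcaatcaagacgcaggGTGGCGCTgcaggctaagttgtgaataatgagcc
PCDHB5, chr5:141135165-141135205: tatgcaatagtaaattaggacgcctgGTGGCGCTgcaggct
PCDHB13, chr5:141213851-141213910: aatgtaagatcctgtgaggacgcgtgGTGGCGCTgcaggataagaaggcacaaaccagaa
PCDHB14, chr5:141223249-141223308: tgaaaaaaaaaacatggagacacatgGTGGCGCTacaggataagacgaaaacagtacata
The run began 15 (PCDHB5) to 83 bases (PCDHB4) before the gene start in these 6. PCDHB3, which holds the run, had the smallest log2 fold change of the tested beta genes in COMBO (2.04, SE 0.31, adjusted p = 5.29e-06). PCDHB1 and PCDHB8 were the beta promoters without the run, and PCDHB8 had a fitted log2 fold change of 5.70 in COMBO, from 1 pooled count in DMSO. Median CpG pairs per window were 5 in alpha, 6 in beta and 5.5 in gamma promoters and 12 in all promoters. CACCTG, the E-box bound by SNAI and ZEB repressors, was found in 0 of 13 alpha, 1 of 14 beta and 3 of 20 gamma promoters and in 20.6% of all.

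The gamma cluster (141330514 to 141512977) was the only one with appreciable levels in DMSO, and PCDHGC3, a C-type isoform that is used broadly rather than by random choice, led it. PCDHGC3 was at 4.74, 5.09 and 5.41 CPM in DMSO, 6.10, 7.02 and 5.83 under GDC, 11.98, 11.1 and 12.3 under GSK and 8.19, 7.5 and 8.74 under COMBO. No 2 arms overlapped, and COMBO lay between GDC and GSK. It rose by 1.18 in GSK (SE 0.12, adjusted p = 1.32e-08) and, for COMBO, 0.64 (SE 0.11, adjusted p = 3.16e-05), and COMBO was below GSK by 0.54 (log2 fold change -0.54, SE 0.11, adjusted p = 0.000464). PCDHGA8 was at 0.947, 1.44 and 1.08 CPM in DMSO, 1.33, 1.66 and 2.62 under GDC, 3.19, 3.79 and 3.81 under GSK and 5.98, 5.01 and 5.83 under COMBO. Its COMBO libraries were above all GSK libraries (0.62, SE 0.18, adjusted p = 0.00936), and against DMSO it rose by 1.64 (SE 0.23, adjusted p = 2.27e-06) and 2.25 (SE 0.20, adjusted p = 1.79e-09). PCDHGA10 rose less, by 0.78 in GSK (SE 0.20, adjusted p = 0.00150) and, for COMBO, 1.10 (SE 0.18, adjusted p = 8.76e-06), from 1.6 to 2.0 CPM in DMSO to 3.37 to 4.30 in COMBO. The largest gamma changes were in PCDHGA7, from 5 pooled counts in DMSO to 44 in GSK and 110 in COMBO (log2 fold change 4.04, SE 0.43, adjusted p = 5.12e-08, and 4.69, SE 0.36, adjusted p = 2.36e-10), and in PCDHGA2, from 8 to 54 and 122 counts (3.72, SE 0.42, adjusted p = 1.20e-07, and 4.22, SE 0.36, adjusted p = 1.28e-09).

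The other 13 tested gamma genes rose in COMBO by 1.71 to 4.0. In GSK, 11 of them rose by 0.92 to 3.16, and PCDHGA4 (0.76, adjusted p = 0.0577) and PCDHGA11 (0.96, adjusted p = 0.0824) missed the threshold. None of the 13, nor PCDHGA7 and PCDHGA2, passed the test's filter on DMSO libraries alone, which favoured a rise. Over all tested genes, 40.0% were higher in GSK and 43.3% in COMBO.

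Composition of the gamma cluster differed between arms. PCDHGC3 made up 40.7% ± 1.18 of gamma counts in DMSO, 33.8% ± 5.21 under GDC, 30.7% ± 1.34 under GSK and 16.8% ± 0.216 under COMBO (SD, n = 3). Summed PCDHGA isoforms were 1.65-fold, 3.17-fold and 4.96-fold their DMSO mean in GDC, GSK and COMBO, and summed PCDHGB isoforms 1.79-fold, 4.59-fold and 6.69-fold. The 3 PCDHGC isoforms were 1.25-fold, 2.30-fold and 1.61-fold. PCDHGC4 and PCDHGC5 stayed near the floor in every arm, at 0 to 0.134 CPM per library. PCDHGA1 (0 pooled counts in DMSO, 25 in COMBO) was at 10.8-fold the DMSO floor in COMBO, with counting error in COMBO left out. PCDHGA3 (3 and 19 counts) was 8.19-fold its DMSO level (95% counting interval 2.41 to 43.2). By default HTSeq leaves a read in an exon that several genes share uncounted as ambiguous; the settings used are not given in the sources used here.

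**Figure D3:**
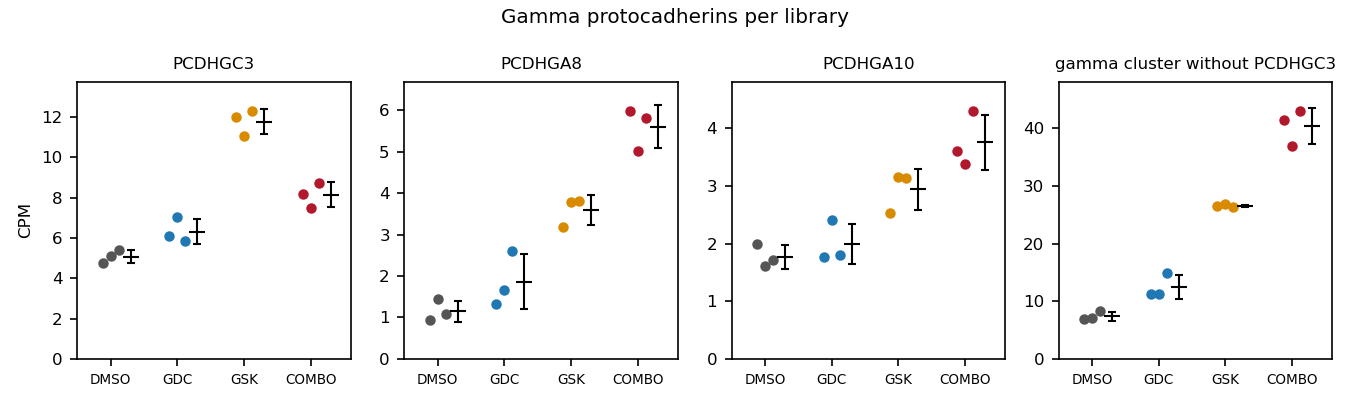
CPM (y axes, from 0) of PCDHGC3, PCDHGA8, PCDHGA10 and the gamma cluster without PCDHGC3 in the 3 libraries of each arm, with the mean and SD as black bars. PCDHGC3 peaks in GSK at 11.1 to 12.3 CPM, and the remaining gamma isoforms are highest in COMBO at 37.0 to 43.0 CPM.

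The alpha cluster (140786136 to 141012347) remained low. Its sum reached at most 4.97 CPM, and 1 member, PCDHA1, passed the filter, though not on its DMSO libraries alone. PCDHA1 was at 0.316, 0 and 0.0722 CPM in DMSO, 0.265, 0.0616 and 0 under GDC, 1.65, 0.553 and 0.763 under GSK and 1.68, 0.843 and 0.874 under COMBO, with log2 fold changes of 3.31 under GSK (SE 0.72, adjusted p = 0.000370) and 3.58 under COMBO (SE 0.63, adjusted p = 3.19e-05). Both GSK126 arms lay above all DMSO and GDC libraries. Among members outside the test, PCDHA10 had 7 pooled counts in DMSO, 19 in GSK and 46 in COMBO, a COMBO ratio of 8.49 (95% counting interval 3.81 to 22.3). PCDHA11 went from 1 count to 32 in COMBO (41.4, 6.91 to 1684), PCDHA6 from 1 to 16 (20.7, 3.21 to 867), PCDHA13 from 2 to 12 (7.76, 1.73 to 71.4) and PCDHA4 from 2 to 11 (7.11, 1.55 to 66.0). PCDHA12, with 0 and 14 counts, was at 6.03-fold the DMSO floor in COMBO, with counting error in COMBO left out. PCDHA3 had 1 count in GSK against 11 in DMSO (ratio 0.187, with an interval of 0.00435 to 1.29 that spans 1), and its COMBO ratio was 2.23 (1.01 to 5.19). The C-type PCDHAC2 had 5 counts in DMSO, 11 in GSK and 12 in COMBO (COMBO ratio 3.10, 1.02 to 11.2). PCDHA2, PCDHA5, PCDHA7, PCDHA8, PCDHA9 and PCDHAC1 had at most 9 counts in any arm.

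Member genes were next tested one by one (edgeR quasi-likelihood test over all genes, Benjamini-Hochberg adjusted p under 0.05). The low-count filter kept 43 of the 90 members among 14189 genes. In GSK, 35 of the 43 were higher and 3 lower than in DMSO, where 40.0% and 35.7% of all tested genes were. In COMBO, 36 were higher and 4 lower, against 43.3% and 39.2% of all tested genes. In GDC, 6 were higher and 1 lower, against 20.0% of all tested genes in either direction. Of the 43, 31 did not pass the filter on their DMSO libraries alone. They needed libraries of other arms above the cutoff, which favoured a rise against DMSO without forcing a call. Among the 12 that passed on their DMSO libraries alone, 7 were higher and 3 lower in GSK, against 36.0% and 40.2% of the 12573 genes that passed in this way, and 5 were higher and 4 lower in COMBO, against 38.6% and 44.0%. The 3 clustered genes among these 12 (PCDHGC3, PCDHGA8 and PCDHGA10) were higher in both arms. With no filter, 89 members entered the fit, and 50 were higher and 3 lower in GSK (all genes, 28.0% and 28.5%), 57 higher and 5 lower in COMBO (all genes, 33.5% and 29.7%). Of these, 41 and 46 of the higher genes and 0 of the lower ones were among the 55 clustered members. Clustered members at or near 0 counts in DMSO could not be called lower. Among the 12 members that passed on DMSO alone, the median log2 fold change was 0.23 in GSK and -0.045 in COMBO, and over all genes that passed in this way it was -0.024 and -0.052. Library totals in place of TMM shifted the median of all genes by 0.15 in GSK and 0.21 in COMBO.

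**Figure D4:**
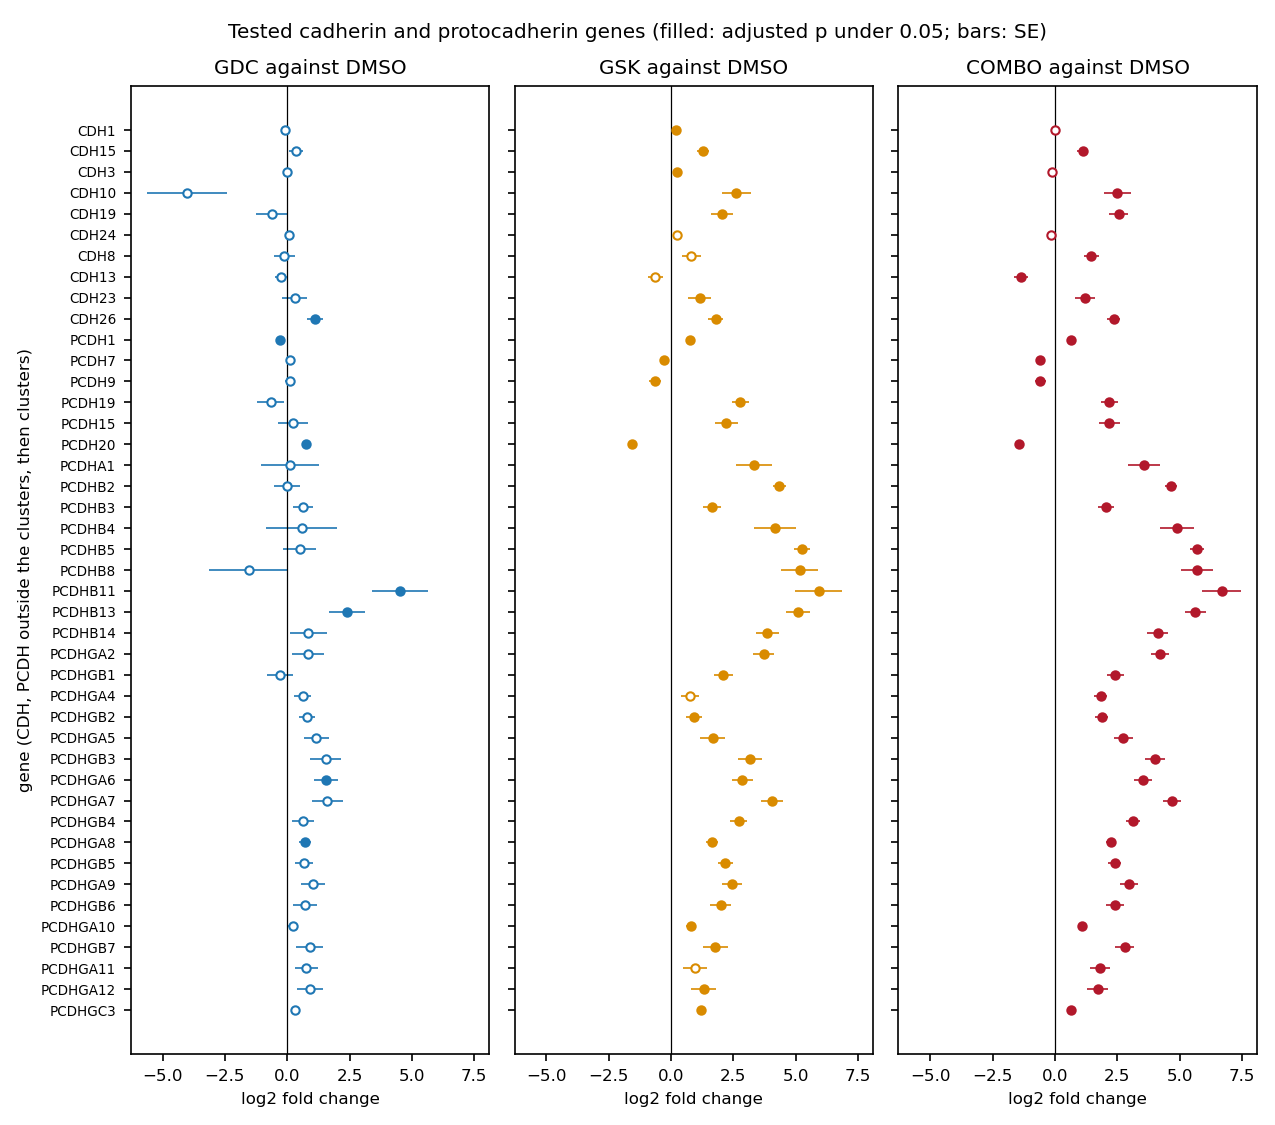
Log2 fold change against DMSO (x axis) with its SE (bars) for the 43 tested members (y axis) in GDC, GSK and COMBO, with filled points at an adjusted p under 0.05. Clustered genes lie to the right of 0 in GSK and COMBO, and the fitted values of PCDHB11, PCDHB8 and CDH10 in GDC rest on arms at or near 0 counts.

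Classical type I cadherins include CDH1 (E-cadherin), the adhesion receptor of epithelial junctions, CDH2 (N-cadherin), its mesenchymal counterpart, CDH3 (P-cadherin) and CDH15 (M-cadherin of muscle). CDH1 (chromosome 16, 68737292 to 68835537) was at 752, 726 and 717 CPM in DMSO, 693, 679 and 684 under GDC, 818, 817 and 865 under GSK and 713, 741 and 768 under COMBO. GSK libraries were the highest, GDC the lowest, and COMBO overlapped DMSO. CDH1 rose by 0.19 in GSK (SE 0.039, adjusted p = 0.000212), while the differences in GDC (-0.094, SE 0.039, adjusted p = 0.0595) and COMBO (0.018, SE 0.039, adjusted p = 0.681) missed the threshold. Its GDC value passed the threshold in 17 of 19 alternative fits, and its COMBO value passed with library totals (0.23, adjusted p = 1.30e-05). CDH3, next to CDH1 on the same chromosome (68636189 to 68727468), was at 37.8 to 40.9 CPM in DMSO, 38.4 to 38.8 under GDC, 43.0 to 49.9 under GSK and 34.5 to 38.4 under COMBO. It rose by 0.23 in GSK (SE 0.065, adjusted p = 0.00366, lost without DMSO C, without GSK B and with no filter, at up to 0.147). Its log2 difference in COMBO was -0.11 (SE 0.063, adjusted p = 0.124) and positive with library totals. COMBO was below GSK for CDH3 (-0.33, SE 0.066, adjusted p = 0.000319) and CDH1 (-0.17, SE 0.039, adjusted p = 0.00127). CDH15 rose from 1.16 to 1.71 CPM in DMSO to 3.0 to 4.07 in GSK (log2 fold change 1.27, SE 0.25, adjusted p = 0.000124) and 2.53 to 3.93 in COMBO (1.11, SE 0.23, adjusted p = 0.000219), with 1.41 to 2.59 in GDC. CDH2 had 1 read in the 12 libraries, in GDC B. CDH4 (R-cadherin) had 8 pooled counts in DMSO and 13 in COMBO, a ratio of 2.10 (95% counting interval 0.807 to 5.85).

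Levels of different genes were compared per kilobase of exon that no other counted gene shares. In DMSO, CDH1 stood at 152 ± 3.83 CPM per kilobase, PCDH1 at 9.92 ± 0.464 and CDH3 at 8.84 ± 0.358 (SD, n = 3), followed by CDH24 at 2.01 ± 0.0772, PCDHGC3 at 1.97 ± 0.131 and PCDH7 at 1.46 ± 0.170. CDH24 and PCDHGC3 lay within their spread of each other. CDH1 led in every arm. In COMBO the order after CDH1 was PCDH1 (15.2 ± 0.887), CDH3 (8.18 ± 0.433), PCDHGC3 (3.15 ± 0.240), PCDHGA8 (2.15 ± 0.199) and PCDHB5 (1.84 ± 0.0459). PCDHB5, PCDHB2 (1.82 ± 0.305) and CDH24 (1.78 ± 0.225) lay within their spread of each other in COMBO. PCDHB5 per kilobase was 0.0219 ± 0.0252 in DMSO.

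**Figure D5:**
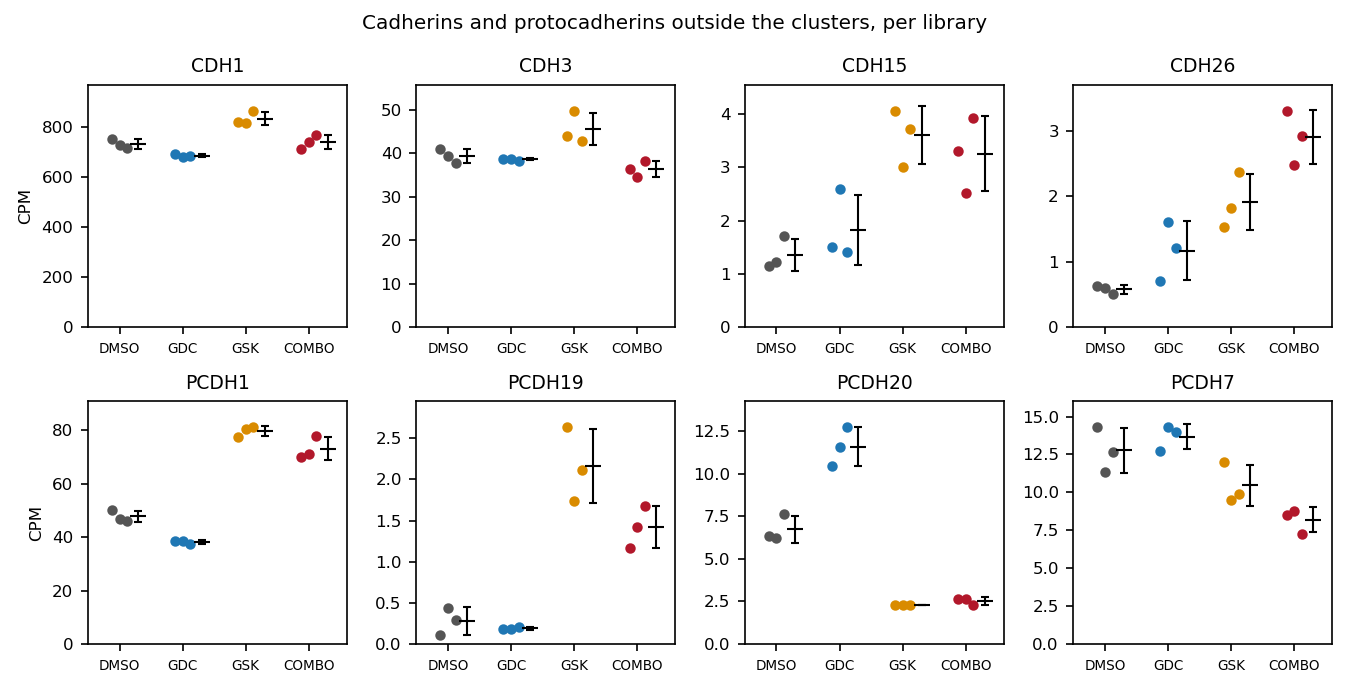
CPM (y axes, from 0, with a scale for each gene) of 8 cadherin and protocadherin genes outside the clusters in the 3 libraries of each arm, with the mean and SD as black bars. CDH1 lies at 679 to 865 CPM and CDH3 at 34.5 to 49.9 CPM, PCDH1, PCDH19, CDH15 and CDH26 are higher in GSK and COMBO, and PCDH20 is highest in GDC and lowest with GSK126.

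Classical type II cadherins are mostly known from neurons and development, and 4 of the 13 passed the filter. CDH24 was at 6.67 to 7.16 CPM in DMSO, 6.96 to 7.60 under GDC, 6.78 to 9.56 under GSK and 5.22 to 6.70 under COMBO, and passed the test against DMSO in no arm (adjusted p = 0.620, 0.120 and 0.247), while COMBO was below GSK (-0.39, SE 0.14, adjusted p = 0.0241, up to 0.190 in alternative fits). CDH19, a glial cadherin, was at 0.631, 0.276 and 0.217 CPM in DMSO, 0.0884 to 0.268 under GDC, 0.549, 1.74 and 1.27 under GSK and 1.57, 2.09 and 1.53 under COMBO. The GSK range overlapped DMSO through 1 library, and GSK differed by 2.05 (SE 0.44, adjusted p = 0.000285), and COMBO lay above it at 2.55 (SE 0.37, adjusted p = 2.70e-06). CDH10 had 8 pooled counts in DMSO, 0 under GDC, 25 under GSK and 37 under COMBO, and rose by 2.61 with GSK126 alone (SE 0.58, adjusted p = 0.000576) and by 2.5 with both agents (SE 0.54, adjusted p = 0.000350). CDH8 was at 0.332 to 0.529 CPM in DMSO, 0.711 to 0.879 in GSK and 1.07 to 1.63 in COMBO, with a rise in COMBO (1.46, SE 0.31, adjusted p = 0.000228) and a value of 0.80 in GSK that missed the threshold (SE 0.38, adjusted p = 0.0632). Of the type II genes outside the test, CDH12 (19 counts in DMSO, 18 in COMBO) and CDH18 (30 and 12) had COMBO ratios whose intervals spanned 1 (0.606 to 2.46 and 0.241 to 1.04), and CDH6 had a GSK ratio of 3.78 (6 and 11 counts, interval 1.28 to 12.4). The CDH6 ratio in COMBO was 1.94, with an interval that spanned 1 (0.616 to 6.62). CDH9 reached 7 pooled counts in COMBO against 1 in DMSO, and CDH5 (VE-cadherin), CDH7, CDH11, CDH20 and CDH22 had at most 4 in any arm.

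Among the other CDH genes, CDH26, a cadherin of epithelia, was at 0.505 to 0.632 CPM in DMSO, 0.707 to 1.60 under GDC, 1.54 to 2.37 under GSK and 2.49 to 3.31 under COMBO. Each arm was above DMSO without overlap, by 1.13 in GDC (SE 0.32, adjusted p = 0.00867) and 1.79 and 2.36 in the GSK126 arms (SE 0.31 and 0.26, adjusted p = 2.71e-05 and 5.89e-08), although the GDC call was lost without DMSO C or GDC B (adjusted p up to 0.112). CDH13 (T-cadherin), which is anchored to the membrane by lipid and has no catenin-binding tail, was at 1.05 to 1.25 CPM in DMSO, 0.678 to 0.869 in GSK and 0.291 to 0.581 in COMBO. It fell in COMBO (-1.36, SE 0.28, adjusted p = 0.000201), and its GSK value missed the threshold (-0.63, SE 0.29, adjusted p = 0.0533). CDH23, a tip-link protein of hair cells, was at 0.241 to 0.442 CPM in DMSO, 0.339 to 0.879 in GSK and 0.581 to 1.02 in COMBO. Its rises of 1.14 (SE 0.46, adjusted p = 0.0308) and 1.20 (SE 0.41, adjusted p = 0.0111) were lost in 7 of 17 and 3 of 18 alternative fits, among them those without DMSO C. CDH23 overlaps the counted gene C10orf105 on the other strand, and the use of strand in counting is not given in the sources used here. CDH16 had 0 counts in all libraries, and CDH17 had at most 4 in an arm.

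Protocadherins outside the clusters include the delta-1 genes PCDH1, PCDH7, PCDH9 and PCDH11X and the delta-2 genes PCDH8, PCDH10, PCDH17, PCDH18 and PCDH19. PCDH1, an adhesion protein of airway and other epithelia that lies beyond the gamma cluster on chromosome 5 (141853090 to 141879246), was at 50.3, 46.8 and 46.2 CPM in DMSO, 38.5, 38.7 and 37.5 under GDC, 77.6, 80.5 and 81.3 under GSK and 70.2, 71.3 and 78.1 under COMBO. GDC lay below and both GSK126 arms above DMSO. It fell by 0.31 in GDC (log2 fold change -0.31, SE 0.058, adjusted p = 0.000271) and rose by 0.75 in GSK (SE 0.055, adjusted p = 1.80e-10) and, for COMBO, 0.62 (SE 0.054, adjusted p = 1.31e-09). PCDH20 showed the opposite directions. It was at 6.31, 6.25 and 7.63 CPM in DMSO, 10.4, 11.6 and 12.7 under GDC, 2.31, 2.29 and 2.29 under GSK and 2.61, 2.66 and 2.26 under COMBO, so GDC was above and the GSK126 arms below DMSO. Its log2 fold change was 0.75 in GDC (SE 0.11, adjusted p = 3.42e-05), while those of the GSK126 arms were -1.59 and -1.44 (SE 0.16 and 0.14, adjusted p = 2.34e-08 and 8.31e-09), and COMBO was below GDC by 2.20 (log2 fold change -2.20, SE 0.14, adjusted p = 1.18e-11).

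PCDH7 was at 11.3 to 14.3 CPM in DMSO, 12.7 to 14.3 under GDC, 9.49 to 11.98 under GSK and 7.28 to 8.79 under COMBO. It fell in COMBO (-0.61, SE 0.11, adjusted p = 3.79e-05) and, with overlap, in GSK (-0.28, SE 0.11, adjusted p = 0.0313), a call lost with library totals and without DMSO C, GSK B or GSK C (adjusted p up to 0.308). PCDH9 fell by similar amounts in GSK (-0.64, SE 0.24, adjusted p = 0.0192) and COMBO (-0.59, SE 0.21, adjusted p = 0.0140), from 1.83 to 2.695 CPM in DMSO to 1.27 to 1.76 and 1.34 to 1.86, the latter with overlap. Without DMSO C both PCDH9 calls were lost, and the adjusted p reached 0.160 and 0.190 over all alternative fits. PCDH19, whose product partners with N-cadherin in neurons, rose from 0.105 to 0.442 CPM in DMSO to 1.74 to 2.64 in GSK (2.78, SE 0.33, adjusted p = 1.91e-07) and 1.16 to 1.67 in COMBO (2.18, SE 0.33, adjusted p = 3.74e-06). PCDH15, a tip-link partner of CDH23, rose from 0 to 0.241 CPM to 0.769 to 1.19 in GSK (2.21, SE 0.46, adjusted p = 0.000240) and 0.697 to 1.06 in COMBO (2.18, SE 0.42, adjusted p = 8.44e-05). Outside the test, PCDH11X had 4 pooled counts in DMSO and 27 in COMBO (ratio 8.73, 95% counting interval 3.04 to 34.3), PCDH17 had 9 and 22 (3.16, 1.40 to 7.80) and PCDH12 had 7 and 15 (2.77, 1.06 to 8.03). In GSK the PCDH11X ratio was 6.18 (1.87 to 26.3). Intervals spanned 1 there for PCDH17 (1.60, 0.507 to 4.84) and PCDH12 (1.77, 0.4905 to 6.14). PCDH11X shares 57.8% of its 50-base windows with a related gene. PCDH8, PCDH10 and PCDH18 had at most 3 counts in an arm.

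To ask what the PI3K inhibitor added to the EZH2 inhibitor, COMBO was compared with GSK. Of the 43 tested members, 9 were higher and 5 lower, against 19.0% and 26.9% of all tested genes. The share higher was near that over all tested genes, and the share lower was under it. Most tested members were clustered (1 alpha, 8 beta and 18 gamma genes). All 9 were clustered: PCDHB5 (0.44, SE 0.16, adjusted p = 0.0305), PCDHGA8 and PCDHGA7 (0.65, SE 0.24, adjusted p = 0.0316), together with PCDHGA4, PCDHGA5, PCDHGA6, PCDHGB2, PCDHGB3 and PCDHGB7, the last 6 named after their values were seen, at 0.67 to 1.07. The 5 lower genes were CDH1, CDH3, CDH24, PCDH7 and PCDHGC3, and PCDH7 (-0.32, SE 0.12, adjusted p = 0.0360) lost its call in 13 of 19 alternative fits. PCDHB5 and PCDHGA7 lost theirs without a single GSK or COMBO library in 4 fits each. In DESeq2, 3 members were higher and 3 lower. Compared with GDC, COMBO was higher in 35 and lower in 4 members, against 37.9% and 38.0% of all tested genes. The 4 lower genes were CDH13, PCDH7, PCDH9 and PCDH20. The counts against GSK and GDC are partly set by the filter, since 31 members did not pass it on their DMSO libraries alone. For many, such as PCDHB8 (0 CPM in GDC and 0.929 to 1.42 in COMBO), the libraries that passed were in GSK or COMBO. PCDHGB7 (0.44 to 0.87 CPM in GSK and 1.22 to 1.51 in COMBO) passed it through COMBO. COMBO and the single-agent comparisons share libraries, so their values are given side by side only.

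GDC alone changed 7 of the 43 tested members, 6 higher and 1 lower. Both shares lay under the 20.0% of all tested genes called in each direction. With DESeq2 size factors in place of TMM, 6 were higher and 3 lower. Besides PCDHB11, PCDHB13, CDH26 and PCDH20, the higher genes were PCDHGA8, whose GDC range overlapped DMSO (0.71, SE 0.25, adjusted p = 0.0297, up to 0.344 in alternative fits and lost without DMSO A, DMSO C or GDC C) and PCDHGA6 (1.56, SE 0.49, adjusted p = 0.0147), the latter named after its value was seen. PCDH1 was the lower gene. On the log2 scale, the interaction asked whether both agents together did more or less than their separate changes added up. Of the tested members, 3 fell below that sum (CDH3, PCDHGC3 and PCDHB11) and 0 were above it, against 16.5% and 4.86% of all tested genes. For PCDHGC3 the departure was -0.83 (SE 0.16, adjusted p = 0.00106).

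Genes that work with cadherins were examined as lists, beside the 40.0% of all tested genes that were higher and 35.7% lower in GSK and the 43.3% higher and 39.2% lower in COMBO. Of 13 tested catenins and junction partners, 8 were higher and 3 lower in GSK and 9 higher and 3 lower in COMBO, with a median log2 fold change of 0.55 in COMBO against 0.054 over all tested genes. The largest changes in COMBO were in CTNND2 (3.89, SE 0.59, adjusted p = 5.06e-06) and CTNNA2 (2.66, SE 0.32, adjusted p = 1.86e-07), catenins best known from neurons, both under 3 CPM. Of 11 desmosomal genes, 3 were higher and 6 lower in COMBO (median -0.73). DSG4 rose by 4.12 (SE 0.42, adjusted p = 1.99e-08) and DSG1 fell by 2.49 (log2 fold change -2.49, SE 0.18, adjusted p = 6.36e-11), both being desmosomal cadherins of stratified epithelium. Among 14 tested genes of the wider cadherin superfamily, 11 were higher and 1 lower in COMBO (median 1.39), with CLSTN2 at 2.59 (SE 0.45, adjusted p = 2.58e-05) and FAT4 at 2.24 (SE 0.40, adjusted p = 3.76e-05). Of 11 CTCF and cohesin genes, 0 were higher and 10 lower in GSK, and 2 were higher and 9 lower in COMBO (median -0.69). The cohesin subunits SMC1A and SMC3 fell by 1.24 and 1.03 in COMBO (log2 fold changes -1.24, SE 0.045, adjusted p = 1.15e-15, and -1.03, SE 0.055, adjusted p = 5.64e-13). Of 6 tested cadherin gene repressors, 3 were higher and 2 lower in COMBO (median 0.16), with KLF8 at 3.58 (SE 0.30, adjusted p = 8.50e-10) and SNAI3 at 1.34 (SE 0.24, adjusted p = 4.13e-05). The sum of the 10 listed repressors went the other way. It was 92.6 to 97.2 CPM in DMSO, 84.6 to 90.4 under GDC, 67.3 to 69.2 under GSK and 70.7 to 72.9 under COMBO.

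Further values were set beside those of the clustered genes. Reads assigned to no counted feature increased from DMSO to COMBO as given above, while ambiguous reads went from 1.925% to 1.995% in DMSO to 1.66% to 1.69% in COMBO. The 376 olfactory receptor genes, another family of mostly silent tandem genes, summed to 2.0 to 2.79 CPM in DMSO, 2.71 to 3.22 under GDC, 7.63 to 8.90 under GSK and 9.81 to 10.6 under COMBO. Of 216 tested single-exon protein-coding genes outside the members, 80 were higher and 82 lower in GSK and 85 and 82 in COMBO, with medians of 0.004 and 0.032. Within the cluster region 4 other genes were counted, of which TAF7, between the beta and gamma clusters on the opposite strand, was tested and rose by 0.25 in GSK (SE 0.049, adjusted p = 0.000150) and, for COMBO, 0.44 (SE 0.048, adjusted p = 3.88e-08). Both comparator sets and the neighbours were chosen after the data were seen. Of other cell types, the 14 neuronal or neuroendocrine markers summed to 112 to 118 CPM in DMSO, 126.5 to 133 in GDC, 211 to 232 in GSK and 194 to 201 in COMBO. Of 6 tested markers, 1 was higher in GDC and 5 in each of GSK and COMBO. SNAP25 was at 0 in GSK and COMBO, INSM1 in GSK and ELAVL4 in COMBO. The 8 fibroblast markers summed to 12.2 to 14.7 CPM in DMSO, 14.54 to 18.91 in GDC, 29.7 to 42.0 in GSK and 31.9 to 50.9 in COMBO, mostly through COL1A1. Of 4 tested markers, 1 was higher in GDC and 2 in each of GSK and COMBO, and COL1A2 was at 0 in DMSO and COMBO. The 5 endothelial markers summed to 2.95 to 3.61 CPM in DMSO, 4.76 to 7.69 in GDC, 5.85 to 6.48 in GSK and 5.05 to 5.68 in COMBO, so GDC alone was also above DMSO, nearly all of it VWF, with PECAM1 at 0 in DMSO and COMBO. The 6 blood markers reached at most 1.02 CPM, none was tested, and CD3E and HBB were at 0 in every arm. The part of these values in the cluster results was not tested.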

How the data were processed

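PolyA RNA of 12 C4.2B libraries was sequenced. Per the study's methods and processing notes, reads were aligned with STAR to hg38 and counted with HTSeq; versions, annotation and strand setting are not given in the sources used here. The authors deposited raw counts per gene symbol with 5 summary lines, which were left out (reads in genes were 66.3% to 76.3% of the total). There were 0 unmapped per-sample columns. A deposited table of DESeq2-normalized values of these libraries was not used.

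Counts were fitted with edgeR 4.0.16 (R 4.3.3; TMM, filterByExpr, 14189 genes, about 0.705 CPM in 3 libraries, all arms in 1 fit, two-sided). The scripts were tested on simulated data. The members and gene lists were chosen with earlier results of these data known. Named genes were the tested members outside the clusters, the 3 most abundant and the 2 most changed tested members of each cluster, untested members with over 10 pooled counts in an arm, and the 2 most changed genes of each partner list. Coordinates and lengths are from GENCODE 44 canonical transcripts. Ratios of pooled counts carry exact 95% conditional binomial intervals. Where DMSO held no counts, the arm's observed CPM was divided by the DMSO floor and no interval was given. Alternatives were DESeq2 1.42.0, other scalings and filters, a fold threshold, a replicate block and leaving out each library.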

Additional observations from a re-analysis of the deposited data

Results flagged for a closer look

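The change with GDC-0941 differed between cells with and without GSK126 in 3 members, by the interaction term of the edgeR fit (adjusted p under 0.05). All 3 were lower than the sum of the separate changes, which is 6.98% of the 43 tested members, against 16.5% of all tested genes lower and 4.86% higher. PCDHGC3 departed by -0.83 on the log2 scale (SE 0.16, adjusted p = 0.00106): GDC was above DMSO by 0.29 (adjusted p = 0.0637), while COMBO was below GSK by 0.54 (log2 fold change -0.54, adjusted p = 0.000464), and the call held in all 18 alternative fits with highest adjusted p of 0.0149. CDH3 departed by -0.32 (SE 0.092, adjusted p = 0.0173) and lost the call in 12 of 18 alternative fits (adjusted p up to 0.211). PCDHB11 departed by -3.74 (SE 1.19, adjusted p = 0.0317), but DMSO had 0 pooled counts of it, so that value depends on the prior count of the fit, and the call was lost in 8 of 16 alternative fits (adjusted p up to 0.167).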

How the results depend on the processing

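The counts of changed members in GSK (38) and COMBO (40) stayed within 1.5 times under DESeq2 (47 and 51), DESeq2 size factors, library totals, a fold threshold (31 and 36) and fits of the compared arms (27 and 42). With no filter they were 53, 62 and, for COMBO against GDC, 59, and with a mean of at least 1 CPM, which left 23 members, 21, 20 and 21. Requiring at least 1 log2 unit of change, GDC had 4, COMBO against GSK 3 and the interaction 1. DESeq2 gave 6 for COMBO against GSK and 1 for the interaction. Leaving out 1 library gave 6 to 9 for GDC, 35 to 44 for GSK, 39 to 44 and 39 to 45 for COMBO against DMSO and GDC, 9 to 14 for COMBO against GSK (9 without GSK A or COMBO C) and 1 to 4 for the interaction (1 without DMSO A, DMSO C, GDC C or GSK B). DESeq2 size factors put 66.7% of the GDC calls higher, against 85.7% with TMM, and library totals put 64.0% and 63.3% of the calls over all genes higher in GSK and COMBO, against 52.8% and 52.5%.

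The log2 fold of the gamma sum was 1.77 in GSK and 2.17 in COMBO with library totals and 1.84 and 2.45 without PCDHGC3, against 1.62 and 1.96. Without 1 library the alpha, beta and gamma sums were -0.21 to 0.92, 0.70 to 0.97 and 0.52 to 0.67 in GDC, 2.53 to 2.92, 4.06 to 4.33 and 1.57 to 1.69 in GSK, and 2.98 to 3.37, 4.51 to 4.77 and 1.91 to 2.03 in COMBO. The alpha sum in GDC turned to -0.21 without GDC A.

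Libraries with the same replicate letter shared little deviation from their arm means (18 same-letter correlations from -0.084 to 0.188, 2 over 0.1). Those between GDC and COMBO were all positive (0.116, 0.188 and 0.073 for A, B and C). These values cannot show whether the plates were paired. With a replicate block the counts were 11 for GDC, 38 for GSK, 40 and 39 for COMBO against DMSO and GDC, 14 for COMBO against GSK and 3 for the interaction. For single named members, 2094 of 2245 alternative values kept their direction and side of the threshold, 114 lost a call, 37 gained one and 0 called values reversed. Members with under about 10 pooled counts per arm are limited by depth, and the causes of these changes were not tested.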
